A study of Mus musculus with 4 samples.

Results

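Cells with transcripts of neutrophil secondary granule genes were picked out of CD45+ immune cells of mouse liver, and 263 of 32876 kept cells (0.800%) met the rule. The label of the rule is immature secondary-granule neutrophils, and part of the 263 cells went against it, as given below. Kept cells had 500 or more unique molecular identifiers (UMIs, counted transcripts) and 250 or more genes, with no more than 10% of UMIs from mitochondrial genes. A member had at least 1 UMI of at least 3 of Camp, Ngp, Ltf and Lcn2, no UMI of Cd3e and at most 1 UMI of Cd79a and Cd79b together, which leaves out most T and B cells. These genes chose the cells, so their levels are a description and were not tested. The libraries came from WT mice (2 libraries), GS(+/delta)Hep mice (1 library, heterozygous deletion of glutamine synthetase in hepatocytes) and URI(+/delta)Hep mice (1 library, heterozygous deletion of URI in hepatocytes), called GS and URI from here on. Mice of every group, WT included, received tamoxifen for 1 week, and 5 mice were pooled per library. The sort followed a Percoll gradient from which the mononuclear layer was taken, so every share is a share of that layer, and RNA was read by probe hybridisation in fixed cells. The labels do not say which promoter drove the deletion, the age of the mice or how pools were assigned.

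Neutrophils fill their granules in order while they mature in bone marrow. Azurophil (primary) granules with myeloperoxidase are filled at the promyelocyte stage, specific (secondary) granules with lactoferrin and cathelicidin at the myelocyte and metamyelocyte stages, and gelatinase granules later. Division ends around the myelocyte stage, and the transcription factor C/EBP epsilon drives the secondary granule genes. Camp encodes the antimicrobial peptide cathelicidin, Ngp a cystatin-related granule protein, Ltf the iron binder lactoferrin, Lcn2 the siderophore binder lipocalin 2, and Fcnb the lectin ficolin B, which is made early in this series.

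The stretches around short matches to 2 myeloid factor motifs are shown because 4 of these genes chose the cells and the fifth, Fcnb, divides them. The motifs searched were TTGCNNAA for C/EBP factors and AGGAAGT for PU.1, on both strands, in the 250 bases upstream of the start site that RefSeq gives on GRCm38.p6. Capitals mark the match, and every line reads 5′ to 3′ on the gene's strand.
Ngp, chr9:110419659-110419688, plus strand: gtcctggtttaTTGCCCAAacctccttgcc
Ngp, chr9:110419786-110419807, plus strand: accggcagttcTTGGGCAAggc
Ltf, chr9:111019206-111019235, plus strand: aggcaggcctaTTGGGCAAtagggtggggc
Lcn2, chr2:32387937-32387966, minus strand: agcccttcctgTTGCTCAAccttgcacagt
Fcnb, chr2:28085095-28085124, minus strand: caaggcaggccTTTTGCAAacagaggtgcc
Fcnb, chr2:28084983-28085012, minus strand: ttttaggtctcTTGTGCAAccagaggcctc
Fcnb, PU.1 match, chr2:28084964-28084992, minus strand: cagaggcctccAGGAAGTgactatctcct
The C/EBP motif was present upstream of 4 of the 5 genes (Ngp, Ltf, Lcn2 and Fcnb) and of 10.8% of 27025 genes with a promoter in the table. The PU.1 motif was present upstream of Fcnb alone among the 5 and of 8.80% of those genes. Camp had neither in this window. In the GENCODE vM21 annotation of GRCm38 the Camp gene spans 109847379 to 109849617, Ngp 110419747 to 110423012 and Ltf 111019271 to 111042767 on chromosome 9, and Lcn2 spans 32384633 to 32388252 and Fcnb 28076378 to 28084885 on chromosome 2. Camp, Ngp and Ltf thus lie on the same chromosome, and Lcn2 and Fcnb share another. The RefSeq starts used for Ngp, Ltf, Lcn2 and Fcnb lie inside the GENCODE spans, and of the stretches shown the second of Ngp and that of Lcn2 lie within those spans. A match is a description of letters and not a measured binding site.

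The members were not of a single kind. Their summed UMIs of the 4 granule genes ran from 3 to 5735 per cell, and a limit of 100, chosen after the values were seen, separated 142 cells at or above it from 121 below it. The cells at or above 100 numbered 8 in GS, 12 in WT replicate 1, 107 in URI and 15 in WT replicate 2, and 139 of the 142 had all 4 genes. In WT replicate 1 the remaining 25 members sat low, with a median of 4 Ngp UMIs and 1 Camp UMI, against medians of 721 Ngp and 287 Camp UMIs in its 12 cells of at least 100.

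**Figure D1:**
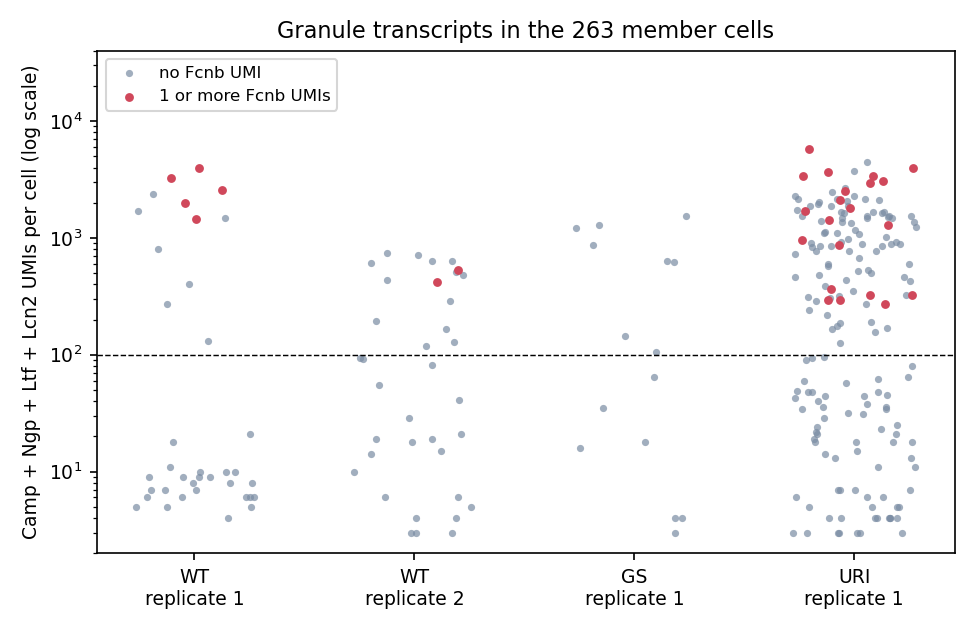
Each point is a member cell, the y axis is its summed Camp, Ngp, Ltf and Lcn2 UMIs on a log scale, the dashed line is at 100 UMIs, and red points have at least 1 Fcnb UMI. All 28 Fcnb-positive cells lie above the line, and URI replicate 1 holds 107 of the 142 cells there.

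The 142 cells of at least 100 granule UMIs were picked by the 4 granule genes, so their levels of those genes followed from that choice. Fcnb, the fifth marker of the label, was present in 28 of them. At least 2 of 9 neutrophil markers were present in all 142. Markers of T, NK, B and Kupffer cells were sparse, while at least 2 of 7 monocyte markers were present in 33 of the 142 (23.2%). Among the 121 cells below 100 the monocyte share was 12.4%. At least 2 of 8 T cell markers were present in 10 of the 142 (7.04%) and at least 2 of 6 NK cell markers in 5 (3.52%). At least 2 of 6 B cell markers were present in 1 (0.704%), and the 5 Kupffer cell markers were at 0. Among the 121 cells below 100, at least 2 T cell markers were present in 57 (47.1%), at least 2 NK cell markers in 33 (27.3%) and at least 2 B cell markers in 21 (17.4%). The summed T cell markers ranged from 41.2 to 126 UMIs per 1000000 UMIs of the summed cells (CPM) over libraries in the upper cells and from 192 to 1879 CPM in the lower ones. NK cell markers ranged from 6.27 to 303 CPM and from 102 to 2084 CPM. Part of the 121 cells thus went against the label, and they are called members by the rule only. The share of the 4 granule genes in barcodes under 100 UMIs, which hold free RNA, was 0.0618% in GS, 0.0731% in WT replicate 1, 0.412% in URI and 0.0833% in WT replicate 2. At or below that share were 18 members of URI and 1 of WT replicate 2, and the part of free RNA in the other low members was not tested. Scrublet marked none of the 263 members as a doublet while marking 4.62% to 5.25% of kept cells. No full barcode was shared between libraries.

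Just outside the rule, cells with 2 of the 4 genes numbered 110 in GS, 128 in WT replicate 1, 181 in URI and 148 in WT replicate 2, with median granule UMIs of 10, 9, 6 and 6. Just inside it, cells with 3 genes numbered 7, 14, 45 and 17, with medians of 16, 6.5, 7 and 14 UMIs. Cells with all 4 genes had medians of 753, 132, 854 and 418 UMIs.

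Members were most frequent in the URI library, by all members and by those of at least 100 granule UMIs alike. They made up 0.191% of kept cells in GS (15 of 7846, exact 95% Clopper-Pearson interval 0.107% to 0.315%), 0.436% in WT replicate 1 (37 of 8481, 0.307% to 0.601%), 1.92% in URI (175 of 9096, 1.65% to 2.23%) and 0.483% in WT replicate 2 (36 of 7453, 0.339% to 0.668%). The URI value lay above both WT values and the GS value below both, and the intervals cover counting error only. On the log2 scale URI was 2.07 above the mean of the WT shares and GS was at -1.27. These differences were not tested, since an exact permutation of 1 library against 2 cannot reach p = 0.05. Cells of at least 100 granule UMIs made up 0.102% in GS, 0.141% in WT replicate 1, 1.18% in URI and 0.201% in WT replicate 2. For these cells the GS interval (0.0440% to 0.201%) overlapped both WT intervals (0.0731% to 0.247% and 0.113% to 0.332%), and the URI interval (0.965% to 1.42%) overlapped none. Per 100 neutrophils, counting members and other neutrophils together, there were 1.23 such cells in GS, 1.84 in WT replicate 1, 15.0 in URI and 1.29 in WT replicate 2. Other neutrophils, defined by at least 10 UMIs of S100a8 and S100a9 and at least 2 of Csf3r, Retnlg, G0s2 and Clec4d, numbered 636, 616, 537 and 1126. Median UMIs per kept cell were 4448, 3763, 4973 and 2659 in the same order. After every cell was thinned to 500 UMIs the member shares were 0.140%, 0.318%, 2.10% and 0.322%.

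**Figure D2:**
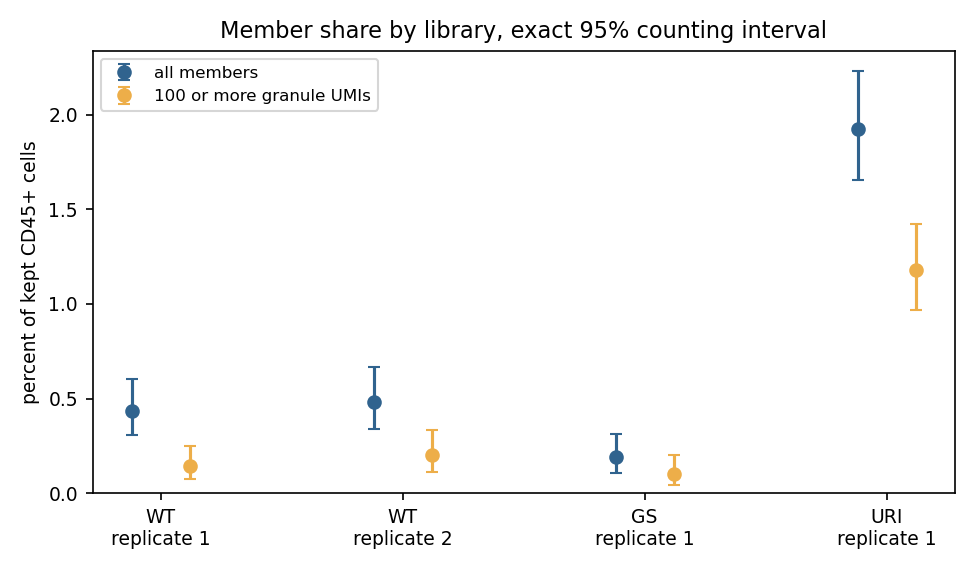
Points are the percent of kept cells that were members (blue) or members of at least 100 granule UMIs (yellow) in each library, and bars are exact 95% counting intervals. The URI library stands at 1.92% and 1.18%, above the other 3 libraries in both measures.

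Within the cells of at least 100 granule UMIs the levels of the 4 genes of the rule in GS and URI lay between the WT values. Ngp was at 39609 CPM in GS, 55482 in WT replicate 1, 46581 in URI and 34846 in WT replicate 2. Camp was at 14480, 23286, 14078 and 11842 CPM and Ltf at 19140, 20678, 17895 and 14457 CPM in that order. Lcn2 was at 18625, 28302, 15400 and 7825 CPM. In other neutrophils Camp ranged from 1.19 to 7.68 CPM and Ltf from 4.38 to 8.95 CPM, while Lcn2 stayed at 1023 to 2019 CPM. Lcn2 had a UMI in 64.5% to 79.5% of other neutrophils and Camp in 0.472% to 2.61%. Ngp was at 149 to 178 CPM there. The rule itself keeps cells with 3 of these genes out of the other neutrophils, and Lcn2 was the gene of the rule that most of them still carried.

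Members were then set against other neutrophils of the same library, to describe which genes outside the rule went with the granule transcripts. UMIs were summed per library and set and tested with edgeR's quasi-likelihood test with library as a block. The GS library had 15 members, under the minimum of 20, and did not enter the fit, so p-values rest on 3 libraries. Of 7817 genes tested, 1048 were higher (13.4%) and 1357 lower (17.4%) in members at a Benjamini-Hochberg adjusted p under 0.05. The sets were divided by transcripts of the same cells, so a gene that varies with maturation differs by that choice, and the p-values say how evenly a difference repeated over libraries. Without the URI library, which holds most members, the counts were 381 and 527. With members of at least 100 granule UMIs in all 4 libraries, an alternative chosen after the data were seen, 1016 of 7377 genes were higher (13.8%) and 1519 lower (20.6%), 34.4% in all. In the GS library 71.5% of the genes called higher and 91.8% of those called lower had the same direction, where 34.7% and 65.2% of all genes tested had that direction.

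Other specific granule genes were mostly higher in members. Of 6 listed, 5 were tested, 4 rose and none fell, beside the 13.4% of all genes that rose. Chil3, a chitinase-like granule protein, was at 5125 CPM in GS, 7482 in WT replicate 1, 10599 in URI and 3015 in WT replicate 2, against 106, 79.7, 526 and 104 CPM in other neutrophils. The sets did not overlap, and the log2 difference was 5.26 (SE 0.29, adjusted p = 6.1e-30). Cd177, a surface glycoprotein of neutrophil granules, was at 3075, 2485, 3300 and 2334 CPM against 229, 224, 188 and 170 CPM. It rose by 3.85 on the log2 scale (SE 0.23, adjusted p = 3.7e-27) and was higher in members in every library. The collagenase gene Mmp8 rose by 2.05 (SE 0.22), with 4271, 2768, 2921 and 2016 CPM against 990, 805, 702 and 453 CPM. Olfm4, the olfactomedin 4 gene, rose by 2.16 (SE 0.23) in the fit, and its values were uneven. It was at 0 CPM in GS members, 272 in WT replicate 1, 243 in URI and 123 in WT replicate 2, and all 405 of its UMIs in URI members lay in 6 of 175 cells. Hp, haptoglobin, was at 2800 to 3336 CPM in members and 2790 to 3734 CPM in other neutrophils, with a log2 difference of -0.08 (adjusted p = 0.82).

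Azurophil granule genes were near 0 throughout. Mpo and Ctsg had no UMI in the members of any library. Elane (neutrophil elastase) and Prtn3 (proteinase 3) were at 3.00 and 3.61 CPM in URI members and at 0 in those of the other libraries. Ms4a3, a granulocyte progenitor gene, was at 20.2 CPM in WT replicate 1, 4.81 in URI and 0 in both others. None of the 5 passed the filter on low counts. Stem and progenitor markers ranged from 5.04 to 16.8 CPM in sum, and no member had 2 of the 5.

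Gelatinase granule genes were split. Of 5 tested, 2 rose and 2 fell, beside 13.4% and 17.4% of all genes tested. Mmp25, a membrane-bound matrix metalloproteinase, was at 703, 429, 755 and 741 CPM in GS, WT replicate 1, URI and WT replicate 2, against 247, 224, 220 and 219 CPM, and rose by 1.57 (SE 0.21). Itgam, the integrin alpha M chain, was at 1668, 1321, 1368 and 1029 CPM against 950, 775, 846 and 657 CPM, and rose by 0.76 (SE 0.21, adjusted p = 0.0022). In both genes every library had more in members. Slc11a1, a divalent metal transporter, fell by 1.53 (SE 0.22) and Adam8, a membrane protease, fell by 0.67 (SE 0.22, adjusted p = 0.011). Mmp9, gelatinase B, was at 4733, 3494, 5091 and 5539 CPM against 3429, 3583, 3238 and 3127 CPM, and its difference of 0.54 did not pass (adjusted p = 0.057). In the members of at least 100 granule UMIs it was 0.67 and was called (adjusted p = 0.00074).

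**Figure D3:**
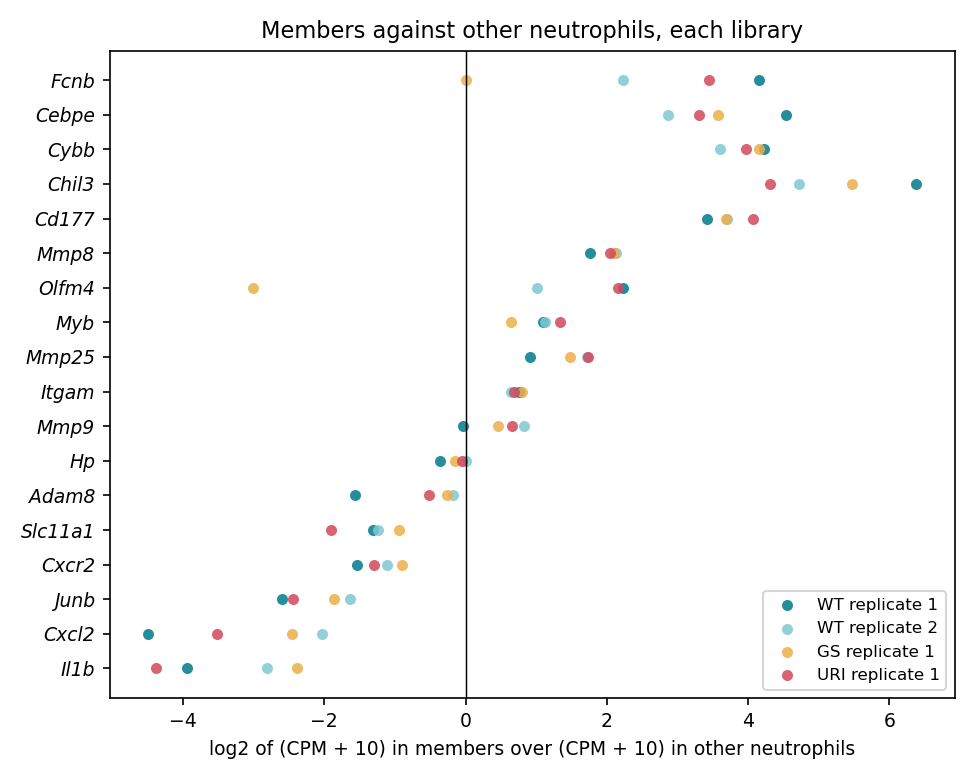
Each point is the log2 ratio, with 10 CPM added to both sides, of a gene's level in members over that in other neutrophils of the same library. Cebpe, Cybb, Chil3, Cd177 and Mmp8 lie to the right of 0 and Slc11a1, Cxcr2, Junb, Cxcl2 and Il1b to the left in all 4 libraries, while Fcnb and Olfm4 do not lie to the right in GS, where their members were at 0.

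Fcnb, itself a marker of the label, had the largest rise of the genes tested that passed the naming rule. It was at 0 CPM in GS members, 176 in WT replicate 1, 109 in URI and 36.8 in WT replicate 2, and at no more than 0.853 CPM in other neutrophils. Its fitted log2 difference was 7.81 (SE 0.48). Fcnb passed the filter on low counts through the members alone, so its rise describes a marker of the label and is no test of it. Orm1, the acute-phase protein orosomucoid, was at 261, 408, 162 and 104 CPM against 0.853 to 2.62 CPM, and rose by 6.76 (SE 0.35). Serpinb1a, an inhibitor of neutrophil serine proteases, was at 613, 887, 791 and 319 CPM against 8.18 to 13.1 CPM, and rose by 5.90 (SE 0.26). Each of the 4 libraries had more Orm1 and more Serpinb1a in members. The short-chain fatty acid receptor Ffar2 rose by 5.48 (SE 0.44), the integrin gene Itgb2l by 4.84 (SE 0.23) and Acvrl1, a TGF-beta family receptor, by 4.90 (SE 0.28). Itgb2l was even across libraries, with 764, 665, 844 and 717 CPM in members against 23.3 to 30.3 CPM. Among the 12 largest rises were also Aldh3b2, Tnnt1, Hsd17b7, Ica1 and Tmem216, at means of 24.1 to 79.5 CPM over the members of the 3 fitted libraries. The 12 largest falls included Atf3 (-3.93), a stress-induced transcription factor, Clec4n (-4.28), the gene of the fungal receptor dectin 2, Sirpb1c (-4.42), Sirpb1a (-3.89), Steap4 (-4.08), Ace (-5.15), Amz1 (-4.36), Btnl2 (-4.55), Sstr4 (-4.95) and 3 bitter taste receptor genes, Tas2r143 (-5.43), Tas2r126 (-4.07) and Tas2r135 (-3.81). The 3 taste receptor genes lie near each other on chromosome 6, and none was above 10.1 CPM in members of any library. Sirpb1a and Sirpb1c are close paralogs, and their counts may not be fully separate.

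Among 7 transcription factors of early myeloid cells, 6 were tested, 3 rose and none fell, beside 13.4% and 17.4% of all genes tested. Cebpe was at 362, 711, 498 and 288 CPM in GS, WT replicate 1, URI and WT replicate 2, against 21.1, 21.1, 41.4 and 30.8 CPM. It rose by 4.00 (SE 0.24, adjusted p = 3.7e-27) with no overlap of the sets. Myb, a factor of proliferating progenitors, rose by 2.48 (SE 0.51) at 10.1 to 28.2 CPM, and Gfi1, a transcriptional repressor needed for granulocyte differentiation, rose by 1.54 (SE 0.55, adjusted p = 0.024), although no UMI of it was seen in GS or WT replicate 1 members. Cebpa (-0.18), Runx1 (-0.23) and Irf8 (-0.20) did not pass, and Gata2 was at 0 CPM in members. Of 8 late myeloid factors 7 fell, among them Cebpb (-2.23), Fos (-2.25), Junb (-2.18) and Klf2 (-1.42), and Nfkb1 did not pass (0.37).

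Genes of mature neutrophils were lower in members. The other neutrophils had been picked by such genes (Csf3r, Retnlg, G0s2 and Clec4d), so a lower level in members partly follows from that choice. Csf3r and Clec4d are on the receptor list and were for that reason not tested. Of 13 mature receptor genes tested 9 fell and 1 rose, beside 17.4% of all genes that fell. Cxcr2, the receptor for neutrophil chemokines, was at 1186, 837, 705 and 637 CPM against 2211, 2459, 1752 and 1393 CPM, and fell by 1.28 (SE 0.21). The decoy receptor gene Il1r2 (-2.16), Clec4e (-2.04), Trem1 (-1.72) and Tlr2 (-1.69) also fell. Fpr2, a formyl peptide receptor, was the gene that rose, by 1.42 (SE 0.21), with 1507, 1482, 1618 and 931 CPM against 617, 558, 567 and 417 CPM. Of 10 inflammatory products tested 9 fell and none rose. Il1b was at 2221, 721, 450 and 1434 CPM in members against 11624, 11222, 9574 and 10105 CPM, and fell by 3.69 (SE 0.26). In the cells of at least 100 granule UMIs it was at 28.6, 25.1, 107 and 628 CPM. Ptgs2 (-3.72), Cxcl2 (-3.21) and Nlrp3 (-3.19) fell as well, and Tnf did not pass (-0.53, adjusted p = 0.052), although it did in the members of at least 100 granule UMIs (-0.71, adjusted p = 0.0035). Genes for retention in or exit from bone marrow moved in both directions. S1pr4, a sphingosine 1-phosphate receptor, rose by 1.77 (SE 0.20), at 342, 353, 335 and 502 CPM against 130, 139, 91.7 and 134 CPM. Ccr1 (-1.52), Itga4 (-1.30), Cxcr4 (-0.92) and Cxcr2 fell.

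Among phagocyte oxidase genes the size of the difference varied. Cybb, the catalytic gp91phox subunit, was at 1397, 1608, 1604 and 692 CPM against 69.3, 76.2, 93.0 and 47.8 CPM, and rose by 4.19 (SE 0.23, adjusted p = 9.3e-30). Ncf1 rose by 1.19 and Cyba by 0.89, and Ncf4 (0.34) and Rac2 (0.32) did not pass. The lists that follow stand beside 13.4% of all genes tested that rose and 17.4% that fell. Of 22 type I interferon response genes tested 16 fell and none rose. Oasl1 (-3.51), Ifit3 (-3.26), Oasl2 (-2.46) and Rsad2 (-2.44) were among them. In GS, which was outside the fit, 9 of these 16 genes were not lower in members, among them Rsad2 at 251 against 176 CPM, Ifit1 at 70.3 against 30.3 CPM and Ifih1 at 181 against 40.6 CPM. The other 7 were lower there. Of 25 immediate early response genes 21 fell and none rose, with Fosb at -2.87, Ppp1r15a at -2.81 and Egr1 at -2.70. Of 15 glycolysis genes tested 4 rose and 1 fell, which were Pgam1 (1.54), Pgk1 (1.49), Ldha (1.04) and Gpi1 (0.84) against the glucose transporter gene Slc2a1 (-2.19). None of 9 nucleolus genes passed. In the members of at least 100 granule UMIs 3 of 8 were called lower, beside 20.6% of all genes tested there. These were Nhp2 (-1.99), Gnl3 (-1.88) and Myc (-1.90), with adjusted p of 0.014 to 0.048. The median log2 difference was -1.27 for the interferon list, -1.71 for the immediate early list, 0.23 for glycolysis and -0.01 over all genes tested.

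Cell cycle genes were low in members as a whole. Of 20 S phase genes 9 were tested, 4 rose (Mcm3, Mcm6, Rrm1 and Cdt1) and Pcna fell by 0.97. Over all genes tested 13.4% rose and 17.4% fell. Mcm3 was at 0, 10.1, 11.4 and 12.3 CPM in members of GS, WT replicate 1, URI and WT replicate 2. Of 20 G2 and M phase genes 4 were tested and 3 rose. Mki67, the proliferation antigen gene, was at 0, 55.5, 62.5 and 12.3 CPM against 0 to 5.12 CPM and rose by 4.30 (SE 0.51), Tacc3 rose by 2.34 and Ccnb2 by 1.64. In WT replicate 2 both ran the other way, with Tacc3 at 0 against 4.25 CPM and Ccnb2 at 0 against 3.93 CPM, and in GS Ccnb2 was at 0 against 2.79 CPM. Cdt1 and Rrm1 were also not higher in members of WT replicate 2, nor Cdt1, Mcm3 and Mcm6 in those of GS. Markers of other cell types were present in both sets, and their order differed between libraries. The summed T cell markers were at 100 to 434 CPM in members and 90.0 to 206 CPM in other neutrophils, with Cd3e at 0 in members by the rule, and NK cell markers at 50.2 to 413 and 133 to 273 CPM. Both were higher in members of WT replicate 1, URI and WT replicate 2. In GS both were lower in members, at 100 against 206 CPM and 50.2 against 273 CPM. Monocyte markers were at 478 to 594 and 413 to 675 CPM, and were lower in members in URI alone (478 against 675 CPM). The part of such cells in the differences above was not tested. In the members of at least 100 granule UMIs, Mcm3, Mcm6, Rrm1 and Cdt1 were at 18.8 CPM or less in every library, and none of 7 S phase genes tested was called higher there (Mcm6 adjusted p = 0.20, Cdt1 0.33; Mcm3 and Rrm1 did not pass the filter). Of G2 and M phase genes 2 were tested in those cells and Ccnb2 alone was called higher.

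Fcnb marked a small subset. At least 1 Fcnb UMI was present in 0 of 15 members in GS (exact interval 0% to 21.8%), in 5 of 37 in WT replicate 1 (13.5%, exact interval 4.54% to 28.8%), in 21 of 175 in URI (12%, 7.58% to 17.8%) and in 2 of 36 in WT replicate 2 (5.56%, 0.680% to 18.7%). The intervals overlapped. All 28 cells had at least 100 granule UMIs, where the shares were 41.7% in WT replicate 1, 19.6% in URI and 13.3% in WT replicate 2. The members held 222 Fcnb UMIs, and 32613 other kept cells held 42 in 20 cells. In URI 5 cells had a single Fcnb UMI, and the Fcnb level of its free RNA was 5.41 CPM. The part of free RNA in these 5 cells was not tested.

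Only the URI library had 20 cells in both Fcnb sets, so the planned test and its comparison between genotypes could not be run. The sets are described in that library, with exact Poisson 95% intervals that cover counting error only, and WT values are given beside them. Median UMIs per cell were 13932 in the 21 Fcnb-positive and 8629 in the 154 Fcnb-negative members. The latter value was 13438 in the 86 Fcnb-negative cells of at least 100 granule UMIs. Of 5757 genes with at least 20 CPM in either set, 8.34% were at least 2-fold higher and 6.97% at least 2-fold lower in Fcnb-positive cells, with 10 CPM added to both sides. Genes named next are the largest in each direction among those with at least 100 CPM.

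The genes with the largest excess in Fcnb-positive cells were genes of dividing cells. Mki67 was at 311 CPM (252 to 380) in Fcnb-positive members and 5.17 CPM (2.08 to 10.7) in Fcnb-negative ones, and it had a UMI in 12 of 21 and 5 of 154 cells. Top2a, the DNA topoisomerase of dividing cells, was at 180 and 0.739 CPM, Rrm2, the ribonucleotide reductase small subunit, at 231 and 1.48 CPM, and Ccna2 (cyclin A2) at 135 and 0.739 CPM. Stmn1, a microtubule regulator, was at 359 and 5.17 CPM. The histone genes Hist1h2ap, Hist1h1b and Hist1h2ae were at 899 against 24.4, 385 against 2.22 and 167 against 2.96 CPM. Ube2c had 39 UMIs in Fcnb-positive and none in Fcnb-negative members. Uhrf1, Cdca3 and Tacc3 completed the 12. Of 16 S phase genes with at least 20 CPM in either set, 16 were at least 2-fold higher, and of 16 G2 and M phase genes 15 were, beside 8.34% of all. Their median log2 ratios were 1.90 and 2.82, against 0.02 over all genes. The listed S phase genes summed to 1393 against 220 CPM, and the G2 and M phase genes to 1589 against 39.2 CPM. Genes near 0 in Fcnb-negative members entered these counts through the Fcnb-positive set, so their 2-fold excess partly follows from the limit of 20 CPM. In WT replicate 1 the summed S phase genes ran the other way, at 157 CPM in Fcnb-positive and 260 CPM in Fcnb-negative members. In WT replicate 2 they were at 1177 and 315 CPM. The summed G2 and M phase genes were at 626 and 0 CPM in WT replicate 1 and at 0 and 32.9 CPM in WT replicate 2. A UMI of Mki67 or Top2a was present in 12 of the 21 Fcnb-positive cells (57.1%) and in 5 of the 86 Fcnb-negative cells of at least 100 granule UMIs (5.81%), at similar median UMIs per cell. In WT replicate 1 the counts were 3 of 5 and 0 of 7, and in WT replicate 2 they were 0 of 2 and 2 of 13. Mki67 was at 132 CPM in Fcnb-positive and 0 in Fcnb-negative members of WT replicate 1. Of the 12 genes 6 were higher with Fcnb in WT replicate 1, and none was in WT replicate 2, where all 12 had no UMI in the 2 Fcnb-positive cells.

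Genes of mature neutrophils were among those with the largest deficit. Of 15 mature receptor genes 10 were at least 2-fold lower and of 10 inflammatory products 8 were, beside 6.97% of all. Against the 86 Fcnb-negative cells of at least 100 granule UMIs the counts were 7 of 15 and 5 of 8, beside 4.47% of all, and the log2 ratio of Ccl4 went from -2.38 to -0.05 and that of Ccl3 from -2.79 to -0.79. Il1b was at 9.63 CPM (1.99 to 28.1) in Fcnb-positive and 551 CPM (513 to 593) in Fcnb-negative members, and at 132 CPM in Fcnb-negative cells of at least 100 granule UMIs. Clec4d, a C-type lectin receptor, had no UMI in Fcnb-positive members and 200 CPM in the others, at least 20.8-fold lower against a floor of 3 UMIs over the set. Cxcl2 was at 22.5 and 402 CPM, Nlrp3 at 6.42 and 161 CPM and Pla2g7, a secreted phospholipase, at 3.21 and 263 CPM. Ifitm1 was at 19.3 and 309 CPM. In the Fcnb-negative cells of at least 100 granule UMIs the levels were lower for Cxcl2 (213 CPM), Nlrp3 (82.9 CPM), Fgl2 (23.1 CPM) and Clec4d (103 CPM, a bound of at least 10.7-fold). Olfm4, Cstdc4 and Stfa3 had no UMI in Fcnb-positive members, and Adam19, Ccl6 and Fgl2 were the others of the 12. All 12 were lower with Fcnb in WT replicate 1 and in WT replicate 2, where 11 and 10 of them had no UMI in the few Fcnb-positive cells.

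**Figure D4:**
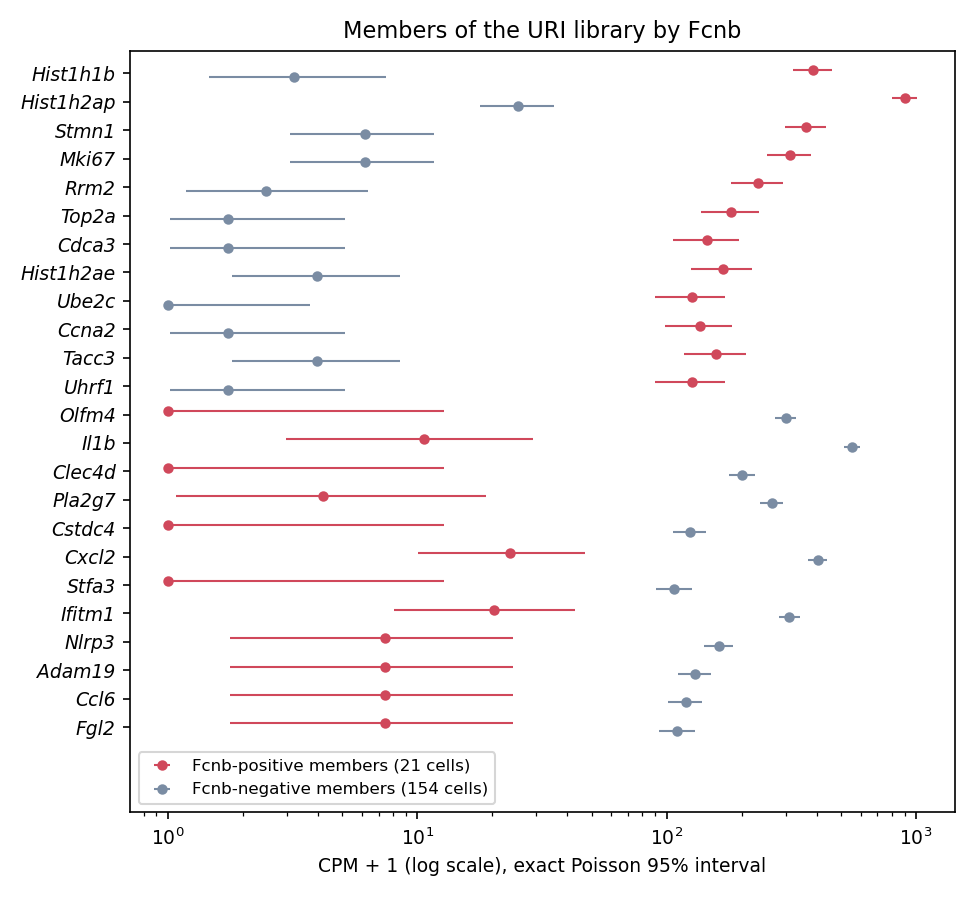
The x axis is CPM + 1 on a log scale in the 21 Fcnb-positive (red) and 154 Fcnb-negative (grey) members of URI replicate 1, with exact Poisson 95% intervals, for the 12 genes of largest excess and the 12 of largest deficit. Mki67 stands at 311 against 5.17 CPM and Il1b at 9.63 against 551 CPM.

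Granule genes differed between the Fcnb sets in both directions. Chil3 was at 20874 CPM in Fcnb-positive and 8232 CPM in Fcnb-negative URI members, and at 14691 and 2289 CPM in WT replicate 1 and 7426 and 2694 CPM in WT replicate 2. The Fcnb-negative sets in this paragraph include the cells below 100 granule UMIs, which no Fcnb-positive cell was. Over all members of at least 100, with or without Fcnb, Chil3 was at 11677 CPM in URI, 9292 in WT replicate 1 and 4948 in WT replicate 2. Cebpe was at 1008 and 380 CPM in URI and 1120 and 416 CPM in WT replicate 1, but at 181 and 296 CPM in WT replicate 2. Orm1 was higher with Fcnb in all 3 libraries, at 449 against 96.1, 771 against 147 and 725 against 59.1 CPM. Mmp8 was lower with Fcnb in all 3, at 767 against 3417, 1240 against 3868 and 90.6 against 2156 CPM. Retnlg, a resistin-like gene of later neutrophils, was at 3158 against 14095 CPM in URI, 301 against 12106 in WT replicate 1 and 2355 against 14149 in WT replicate 2. Mmp9 was lower as well, at 3097 against 5550, 1481 against 4943 and 3804 against 5665 CPM. The azurophil genes stayed low in both sets, at 32.1 and 6.65 CPM in sum in URI.

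The Fcnb-positive URI cells were also not alike. Levels here are summed over few cells and have no interval, and cells with more UMIs weigh more in them. The 12 Fcnb-positive cells with at least 3 Fcnb UMIs had 416 CPM of Retnlg, 300 of Mmp8, 453 of Mki67 and 23930 of Chil3. The 9 with 1 or 2 Fcnb UMIs had 7434, 1495, 90.4 and 16109 CPM. Median UMIs per cell were 16985 and 13296. The 12 cells with Mki67 or Top2a had 447 CPM of Retnlg and 248 of Mmp8, and the 9 without had 6057 and 1322 CPM, at median UMIs of 8946 and 15647. Mmp9 followed the same order, at 1528 and 4775 CPM, while Cd177 was at 4000 and 4549 CPM. Cebpe was at 1267 and 731 CPM.

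Within members, no gene of 3659 tested was called between URI and WT (0.0% of genes, edgeR's quasi-likelihood test). The fit had 3 libraries and 1 residual degree of freedom, so its p-values measure only the spread between the 2 WT libraries. An unadjusted p under 0.05 was reached by 28 genes with edgeR and by 6 with DESeq2. The lowest adjusted p was 0.056, for the histone gene Hist1h2ap, with 188 CPM in URI, 25.2 and 24.5 CPM in the WT libraries and 50.3 CPM in GS. Replication-dependent histone genes are near-identical copies, so their counts may not be separate. Hist1h1b was at 73.9 CPM in URI and 0 in the 3 others (adjusted p = 1.0). Among specific granule genes the differences ranged from 0.21 to 0.93 on the log2 scale, and none of 5 was called. GS had 15 members, under the minimum of 20, and the planned test against WT was not run. In the cells of at least 100 granule UMIs, of which GS had 8, an edgeR test added after the data were seen called 0 of 2631 genes between GS and WT, with 43 at an unadjusted p under 0.05 and a lowest adjusted p of 0.38. Uri1 had 14 UMIs in 12 URI members, 1 and 2 UMIs in those of the WT libraries and 1 in GS, and Glul, which encodes glutamine synthetase, had 91, 11, 6 and 10 UMIs in the same order. The deletions were made in hepatocytes, so these counts do not check them.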

How the data were processed

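Members, gene lists and rules were chosen with earlier results of these data known. The authors deposited raw UMI counts per gene and barcode, not normalized, made with Cell Ranger 8.0.0 against mm10, per the submitters' processing notes; library totals were 24041000 to 51920500 UMIs. Entries for 59 deprecated probes were left out of tests, and no column was unassigned. Free RNA was read from barcodes under 100 UMIs. Doublets were marked with Scrublet (scanpy 1.11.5) and kept; its automatic threshold marked 0% of WT replicate 1, so the median of the other thresholds was used there. UMIs were summed per library and set, because cells are not replicates, and tested with edgeR 4.0.16 (TMM, filterByExpr, quasi-likelihood, Benjamini-Hochberg over all genes tested; R 4.3.3), with at least 20 cells per set; DESeq2 1.42.0 was an alternative. Data of 7872 genes were simulated for members against other neutrophils. There, 70 of 100 genes changed by 2 on the log2 scale and 100 of 100 changed by 4 were recovered, with 5 false calls. For URI against WT (3721 genes) 34 and 99 were, with 4 false calls. The simulation gave every gene a dispersion of 0.1 and gave the libraries no difference but depth. Recovery at the spread of the real libraries was not tested. CPM are UMIs per 1000000 UMIs of the summed cells. Named genes are the 12 largest rises and 12 largest falls with adjusted p under 0.05, at least 20 CPM and the same direction in every fitted library, plus the granule and early factor lists and up to 4 genes of each other list by adjusted p; other genes in the text were chosen after their values were seen. In the Fcnb sets, the size rule (at least 100 CPM) replaced the planned test. Nothing in the labels says how pools were made, so the spread between libraries may be partly technical. Python 3.11.15 was used. Some genes of the lists are not reported here.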

Additional observations from a re-analysis of the deposited data

Results flagged for a closer look

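Barcodes of 200 to 499 UMIs lay outside the cells kept, and 2.85% of those in URI (23 of 806) met the marker rule, above 0.261% (2 of 767) and 1.03% (10 of 974) in the WT libraries and 0.154% (1 of 648) in GS. None of them had 100 granule UMIs.

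Cells with at least 3 granule genes that were left out for Cd3e or Cd79 transcripts made up 1.81% of kept cells in URI (165 cells), above 0.330% (28) and 0.0537% (4) in the WT libraries and 0.115% (9) in GS.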

How the results depend on the processing

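Genes higher and lower in members than in other neutrophils numbered 581 and 794 with DESeq2 and 215 and 337 after thinning to 500 UMIs, where 2977 genes were tested. Leaving out each library gave 381 to 1011 higher and 527 to 1272 lower, with the lowest counts without URI. With members of at least 100 granule UMIs, an alternative chosen after seeing the data, the counts were 1016 and 1519 in all 4 libraries and 542 and 929 without URI, and with the GS library added they were 994 and 1351. The log2 ratio of the member share to mean WT was, for GS, -0.94 with at least 10 granule UMIs, -1.13 with at least 1000 UMIs, -1.40 thinned to 1000 UMIs and -0.75 with at least 100 granule UMIs; without each WT library it ranged from -1.34 to -1.19. For URI these were 2.48, 2.20, 2.43 and 2.78, with 2.44 for all 4 granule genes and 2.71 thinned to 500 UMIs; without each WT library it ranged from 1.99 to 2.14. The log2 ratio of the Fcnb-positive share, URI to mean WT, was 0.33 and turned to -0.31 with at least 10 and -0.49 with at least 100 granule UMIs; without each WT library it ranged from -0.17 to 1.11. After thinning to 500 UMIs no WT member had Fcnb, and no GS member ever had, so no ratio could be given. In the Fcnb sets of URI, 401 genes were at least 2-fold lower, and 250 against Fcnb-negative cells of at least 100 granule UMIs. Causes were not tested. The URI against WT count stayed at 0 in the alternatives run; leaving out a WT library, at least 10 granule UMIs and all 4 granule genes left no residual degrees of freedom. No test of Fcnb sets across libraries, of all GS members against WT, or of an Fcnb difference between genotypes could be run. No paired analysis was possible because the groups share only replicate number 1. With 8 to 15 cells of at least 100 granule UMIs in 3 of the 4 libraries, low genes could not be resolved there.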

Other observations

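Fcnb was also present outside the members, in 1 other kept cell of GS, 3 of WT replicate 1, 11 of URI and 5 of WT replicate 2, with 1, 5, 29 and 7 UMIs. Among the cells left out for Cd3e or Cd79 transcripts, 2 in GS, 21 in URI and 3 in WT replicate 2 had at least 100 granule UMIs, and none did in WT replicate 1.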
